A study of Sus scrofa with 40 samples.

Results

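Collagen chains are the protein subunits that wind together into the collagens of connective tissue, and each chain has its own gene. The genes described here are the rows of the deposited count table named with COL, a number, A and a number, 39 of the 21280 genes in the table. They were placed in 3 classes: 10 fibrillar chains, 5 chains of basement membrane collagen IV and 24 chains of other collagens. The libraries came from 4 meat cuts of the Chalu black pig, with 10 libraries per cut: pork belly (PB), trapezius muscle (TM), hamstring muscle (HM) and the longissimus dorsi of the back (LDM). All pigs were males by the same sire, reared together and killed after a fast, and muscle from the left side of each carcass was cleared of fascia and frozen soon after death. The labels name no control cut and do not say which libraries came from the same pig, so the p-values measure the spread between libraries of a cut. Each pair of cuts is given as the first cut over the second.

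Fibrillar collagens (I, II, III, V, XI, XXIV and XXVII) pack side by side into the fibres that give tendon and the connective sheaths of muscle their strength. Collagen IV forms the sheet-like basement membrane that surrounds every muscle fibre, capillary and smooth muscle cell. Other collagens sit on the surface of fibrils (collagens XII, XIV, XVI and XXI), form beaded filaments (collagen VI), line the zone just outside the basement membrane (collagens XV and XVIII) or build open networks (collagen VIII). In pork, the amount and cross-linking of intramuscular collagen bear on toughness.

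The libraries held 12305913 to 17735722 counts. Levels are given as CPM, counts over the TMM-scaled library total, when 1 gene is compared across libraries. They are given as the FPKM of the authors, which divides by gene length, when genes are compared with each other. Muscle fibre marker genes were abundant in every library, at a summed 77780 to 208700 CPM. PB1, PB7, PB8 and HM6 stood apart in collagen or marker genes, and for many results values without some or all of them are also given. PB1 and PB7 were high in fibril collagens and in the tendon cell markers TNMD, MKX and FMOD, and the tissue and source fields of PB1 name the longissimus although its title and description say PB. PB8 was the lowest PB library for COL1A1, COL3A1 and COL5A3, and its leukocyte markers summed to 176 CPM against 24.0 to 67.9 CPM in the PB libraries other than PB1, PB7 and PB8. HM6 had a summed 5176 CPM of smooth muscle and pericyte markers against 476 to 1243 CPM in the rest of HM. ACTA2, MYH11 and TAGLN were at 2340, 1915 and 578 CPM in HM6, against at most 547, 298.5 and 199 CPM in the rest of HM. RGS5 and PDGFRB, at 184 and 113 CPM, lay less far above the rest of HM (at most 136 and 108 CPM), and CSPG4 lay inside its range. In whole tissue, fewer cells of a type and less RNA per cell cannot be told apart.

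The collagen transcripts of all 4 cuts were dominated by the same few chains. Among the 39 members, by median FPKM over the 40 libraries, COL6A2 led at 64.9, followed by COL3A1 at 61.3 and COL4A2 at 54.9. COL6A1 followed at 54.5, COL1A1 at 36.4, COL6A3 at 31.6 and COL1A2 at 24.5. COL4A1, which carries no symbol in the deposited table, is not in this order. Its median FPKM was 93.5 in PB, 164 in TM, 198 in HM and 115.5 in LDM, above COL6A2 in each cut. Its listed length is 2651 bases against 6475 for COL4A2, and a shorter length raises FPKM. COL3A1 encodes the chain of collagen III, COL1A1 and COL1A2 the chains of collagen I, and COL6A1, COL6A2 and COL6A3 the chains of collagen VI. A second tier of chains lay lower, with COL5A3 at 11.6 FPKM, COL5A1 at 10.7, COL15A1 at 6.93, COL5A2 at 6.64, COL12A1 at 3.42, COL14A1 at 3.41 and COL18A1 at 2.45. Every further member had a median below that of COL18A1. Some genes lie so close to a neighbour that reads may be shared: COL3A1 and COL5A2 overlap tail to tail by 3960 bases on opposite strands, COL14A1 shares 152098 bases with DEPTOR on the same strand, and COL23A1 shares 3312 bases with PHYKPL. In all, 11 members overlap another gene, and with no statement on whether counting used strand, their values are uncertain.

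**Figure D1:**
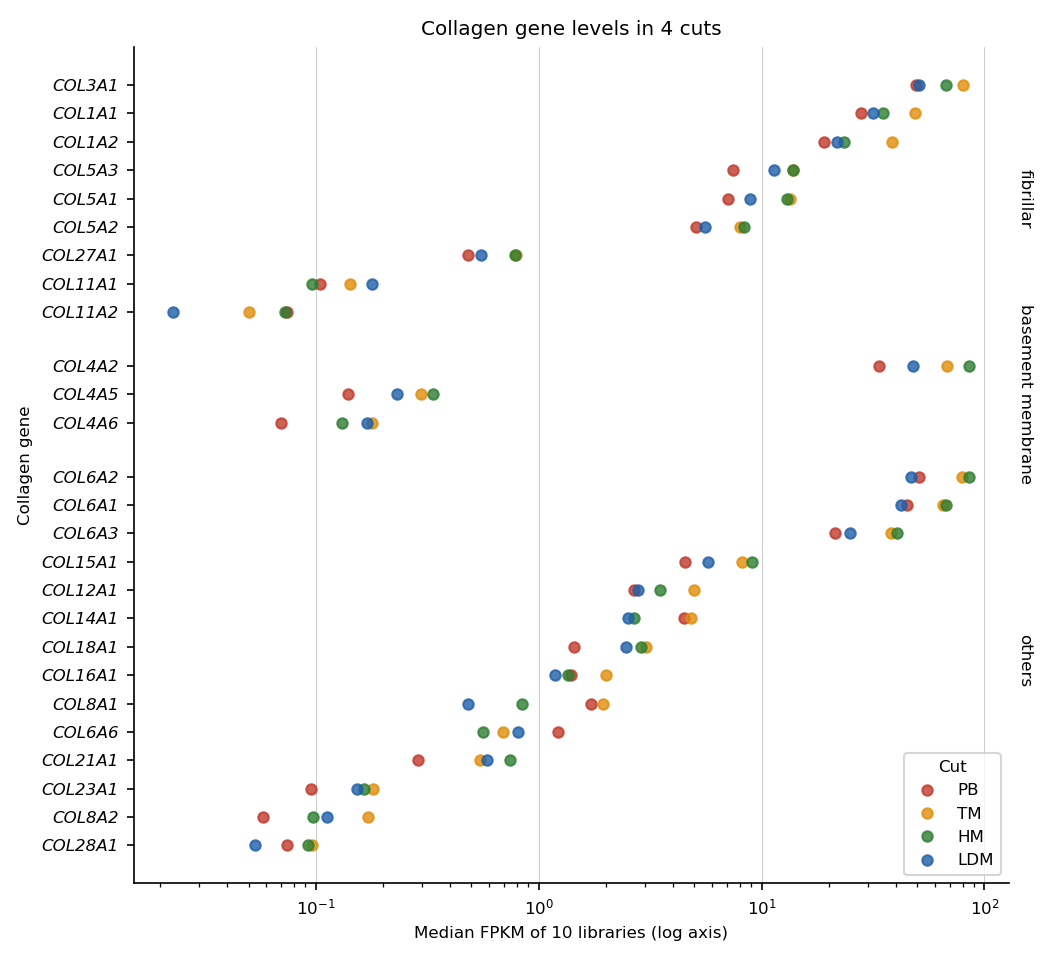
Median FPKM of each of the 26 tested collagen genes in PB, TM, HM and LDM (10 libraries each, log axis), grouped by class and ordered by overall level. COL4A1 is not among the 26. COL3A1, COL4A2, COL6A1, COL6A2, COL1A1, COL6A3 and COL1A2 lie at the right in all 4 cuts, and COL4A5 and COL4A6 lie far to the left of COL4A2.

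Summed collagen counts were highest at the median in TM and HM. The 39 genes summed to 739, 1852 and 5196 CPM in PB (lowest, median and highest library), 1839, 2775 and 3626 CPM in TM, 1597, 2661 and 4765 CPM in HM and 1064, 2011 and 2375 CPM in LDM. PB spread most widely, from PB8 at its lowest to PB1 at its highest, and every cut overlapped every other. Fibrillar chains made up a median of 40.8% of summed collagen FPKM in PB, 40.6% in TM, 39.2% in HM and 40.6% in LDM. The named collagen IV members made up 11.7% in PB, 13.6% in TM, 17.6% in HM and 15.9% in LDM. The other collagens made up 45.8%, 42.4%, 43.4% and 43.3% in the same order. These shares leave out COL4A1, whose median FPKM was above that of COL4A2 in each cut. With COL4A1 counted, the collagen IV share would be larger and the shares of the other classes smaller. Within PB the class shares ran far apart: the fibrillar share was 58.8% in PB1 and 52.8% in PB7, but 17.3% in PB8, against 27.3% to 50.2% in the other 7 PB libraries.

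The ratio of collagen I to collagen III transcripts differed little between the medians of the cuts. COL1A1 over COL3A1, in FPKM, was 0.474, 0.628 and 1.73 in PB, 0.436, 0.617 and 0.834 in TM, 0.446, 0.603 and 0.830 in HM and 0.5257, 0.653 and 0.845 in LDM. PB7 at 1.73 and PB1 at 1.51 lay above all other libraries, since the PB libraries apart from PB1, PB7 and PB8 ended at 0.936. COL1A1 over COL1A2, whose products combine in collagen I, stayed between 1.12 and 1.89 in all 40 libraries.

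**Figure D2:**
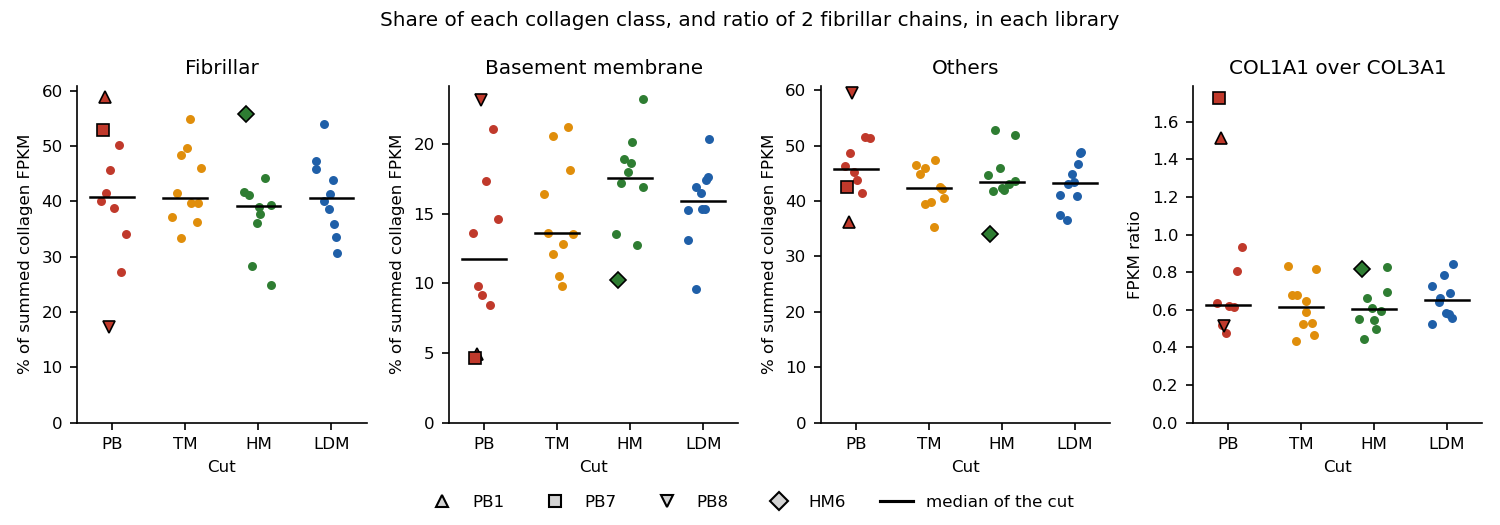
Share of summed collagen FPKM held by fibrillar, basement membrane and other chains, and the FPKM ratio of COL1A1 to COL3A1, in each library of PB, TM, HM and LDM (1 point per library, line at the median of 10). The sums leave out COL4A1. PB1, PB7, PB8 and HM6 have their own symbols, and PB7 and PB1 have the highest ratios, at 1.73 and 1.51.

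Differences between cuts were tested with edgeR across all 11713 genes that passed a filter on low counts, with Benjamini-Hochberg adjustment over all of them and a gene called at an adjusted p under 0.05. Of the 39 members, 26 passed that filter: 9 fibrillar, 3 basement membrane and 14 others. In PB over HM, 11 of 26 collagen genes were called, 3 higher and 8 lower (42.3%), where 27.6% of all genes were called, 13.5% higher and 14.1% lower. In HM over LDM, 10 were higher and 0 lower (38.5%), against 32.5% of all genes, of which 16.5% were higher and 16% lower. In PB over LDM, 8 were called, 6 higher and 2 lower (30.8%), below the 41.7% of all genes, of which 20.5% were higher and 21.2% lower.

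In PB over TM, 6 of 26 collagen genes were called, 1 higher and 5 lower, or 23.1%, the same share as the 23.1% of all genes, of which 13.4% were higher and 9.69% lower. TM over LDM had 1 call, a higher one (3.85%), against 24.7% of all genes, of which 11.3% were higher and 13.4% lower. That count moved with the processing, to 7 with limma-voom and 11 in a fit of TM and LDM alone, all higher. With all libraries, 23 of the 26 log2 changes in TM over LDM were positive and 9 had an unadjusted p under 0.05 in edgeR. TM over HM had 0 calls in edgeR, against 0.768% of all genes, of which 0.41% were higher and 0.359% lower. There, 1 collagen gene, COL4A5, had an unadjusted p under 0.05, and DESeq2 and limma-voom also called 0. A difference of any kind among the 4 cuts was called for 15 of 26 collagen genes (57.7%), against 57.2% of all genes. Pairs that share a cut share its libraries and are not independent of each other.

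The median log2 change of the 26 genes was 0.18 in PB over LDM, 0.49 in TM over LDM, 0.58 in HM over LDM, -0.44 in PB over HM, -0.31 in PB over TM and -0.06 in TM over HM. Over all tested genes the medians were -0.02, 0.04, 0.08, -0.05, -0.06 and -0.02 in the same order. Of the called genes alone, over the whole table, 49.0% were higher in PB over HM and 58.0% in PB over TM. With mitochondrial genes left out of the scaling, these shares of the called genes were 63.1% and 71.4%. Among collagens the counts then were 3 higher and 7 lower in PB over HM and 1 higher and 5 lower in PB over TM.

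**Figure D3:**
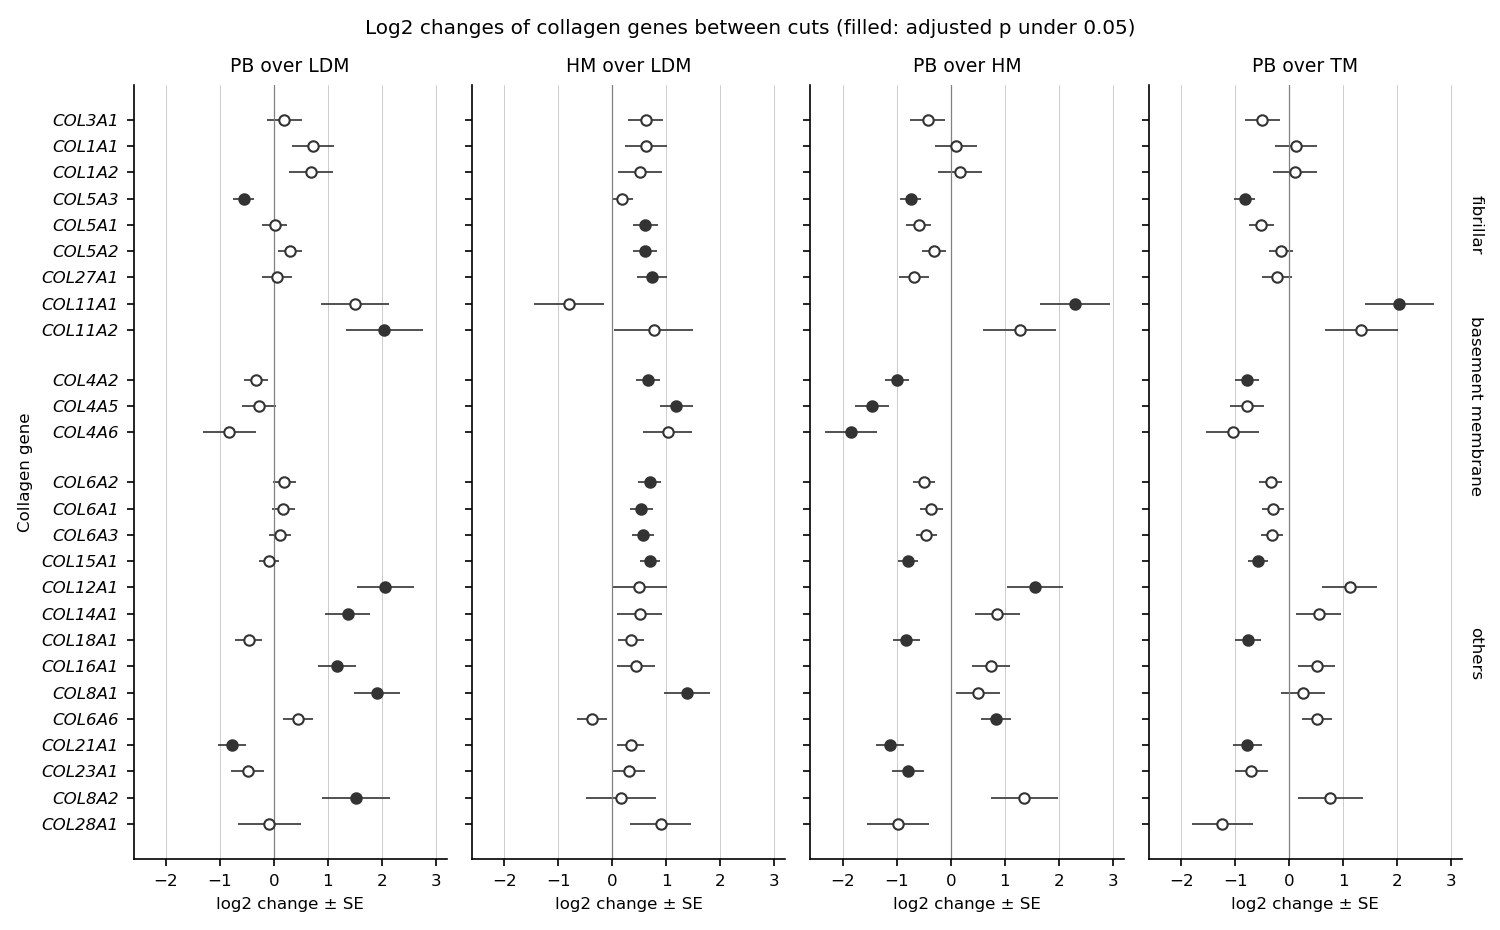
Log2 change with its standard error for the 26 tested collagen genes in PB over LDM, HM over LDM, PB over HM and PB over TM (10 libraries per cut, edgeR, all 4 cuts in the fit). Filled points have an adjusted p under 0.05. In PB over HM the 3 collagen IV genes are filled and left of 0, and COL11A1 and COL12A1 lie right of 0.

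All 3 tested collagen IV genes were lower in PB than in HM. COL4A2 (chromosome 11, 76997516 to 77161615, plus strand, Sscrofa11.1), the partner chain of the common collagen IV trimer, had 134, 227 and 478 CPM in PB (lowest, median and highest), 205, 440 and 671 CPM in TM, 299, 528 and 782 CPM in HM and 173, 341 and 434 CPM in LDM. All 10 PB libraries lay below the HM median, although the PB and HM ranges overlapped. COL4A2 fell by 0.99 ± 0.22 (SE) on the log2 scale in PB over HM (adjusted p = 0.00094) and by 0.78 ± 0.22 in PB over TM (adjusted p = 0.00906), and rose by 0.66 ± 0.22 in HM over LDM (adjusted p = 0.0208). The log2 change was -0.33 ± 0.22 in PB over LDM and 0.45 ± 0.22 in TM over LDM, neither called. COL4A2 stayed called in PB over HM when PB1, PB7, PB8 and HM6 were left out (log2 change -0.78, adjusted p = 0.0217), but no longer in PB over TM (-0.61, adjusted p = 0.0800). In HM over LDM it lost the call without HM4 (adjusted p = 0.0652) or LDM8 (adjusted p = 0.0551).

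COL4A1, whose product joins with that of COL4A2 in the common trimer, carries no symbol in the deposited table and is not among the 39. The gene reference gives that symbol to the row at chromosome 11, 76858296 to 76888850, minus strand, next to COL4A2. Its counts ran close to those of COL4A2 in every library, at 0.903 to 1.19 times as many. COL4A1 had a median of 257 CPM in PB, 426 CPM in TM, 506 CPM in HM and 343 CPM in LDM. It fell by 0.87 ± 0.20 in PB over HM (adjusted p = 0.00116) and by 0.66 ± 0.20 in PB over TM (adjusted p = 0.0140), and rose by 0.59 ± 0.20 in HM over LDM (adjusted p = 0.0209). Its log2 changes of -0.28 ± 0.20 in PB over LDM, 0.38 ± 0.20 in TM over LDM and -0.21 ± 0.20 in TM over HM were not called. Without HM4 or LDM8 the adjusted p in HM over LDM was 0.0753 or 0.0552, and without PB1, PB7, PB8 and HM6 that in PB over TM was 0.118.

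COL4A5 and COL4A6 lie head to head on chromosome X and encode the chains of a rarer collagen IV that is known from smooth muscle and from some other basement membranes. COL4A5 had 0.708, 1.24 and 2.72 CPM in PB, 1.86, 2.51 and 4.10 CPM in TM, 1.89, 2.93 and 15.6 CPM in HM and 0.801, 2.12 and 2.54 CPM in LDM. HM6 gave the HM maximum, and the next HM library stood at 5.13 CPM. COL4A5 fell by 1.46 ± 0.31 in PB over HM (adjusted p = 0.000579) and rose by 1.19 ± 0.31 in HM over LDM (adjusted p = 0.00310). Without HM6 both calls held, at log2 changes of -0.93 (adjusted p = 0.00476) and 0.71 (adjusted p = 0.0243). The PB over HM call did not hold without PB1, PB7, PB8 and HM6 (log2 change -0.68, adjusted p = 0.0631).

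COL4A6 was lower still, at 0.165, 0.464 and 1.16 CPM in PB, 0.355, 1.03 and 3.30 CPM in TM, 0.318, 0.811 and 10.3 CPM in HM and 0.510, 1.13 and 1.78 CPM in LDM. PB had the lowest median and HM6 the highest value. COL4A6 fell by 1.85 ± 0.48 in PB over HM (adjusted p = 0.00373). Without HM6 the log2 change was -1.06 and no longer passed (adjusted p = 0.0525), so this call rested on that library. In HM over LDM it was not called, at 1.02 ± 0.46.

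The collagens of the zone outside the basement membrane, XV and XVIII, were lower in PB over HM and PB over TM, and not called in PB over LDM. COL15A1 (chromosome 1, 240653017 to 240829188, plus strand), which in mice steadies muscle fibres and capillaries, had 25.1, 39.1 and 64.7 CPM in PB, 40.5, 57.0 and 94.3 CPM in TM, 46.2, 70.7 and 134 CPM in HM and 25.2, 41.0 and 68.6 CPM in LDM. All 10 HM libraries lay above the LDM median and all 10 PB libraries below the HM median, with ranges that overlapped. COL15A1 fell by 0.79 ± 0.19 in PB over HM (adjusted p = 0.00164) and by 0.58 ± 0.19 in PB over TM (adjusted p = 0.0228), and rose by 0.70 ± 0.19 in HM over LDM (adjusted p = 0.00428). Its log2 change was -0.09 ± 0.19 in PB over LDM, 0.48 ± 0.19 in TM over LDM (adjusted p = 0.0551) and -0.22 ± 0.19 in TM over HM, none of them called. The PB over TM call was lost without TM8 (adjusted p = 0.0886), TM6 (0.0672) or TM10 (0.0553), while those in PB over HM and HM over LDM passed under every alternative run.

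COL18A1, the source of the fragment endostatin, had 9.65, 16.1 and 28.7 CPM in PB, 18.3, 30.8 and 46.7 CPM in TM, 12.9, 29.9 and 78.3 CPM in HM and 13.7, 27.0 and 35.8 CPM in LDM. All 10 PB libraries lay below the medians of TM and HM. COL18A1 fell by 0.82 ± 0.24 in PB over HM (adjusted p = 0.0107) and by 0.76 ± 0.24 in PB over TM (adjusted p = 0.0209). Without HM6, which held the HM maximum, the log2 change in PB over HM was -0.53 (adjusted p = 0.0726). Without TM3 the adjusted p in PB over TM was 0.0527, and without PB1, PB7, PB8 and HM6 it was 0.272 in PB over HM and 0.0731 in PB over TM. The log2 change in PB over LDM was -0.47 ± 0.24 (adjusted p = 0.121).

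Vessel markers moved with these chains in some pairs and not in others. The 7 endothelial markers summed to 276, 393 and 727 CPM in PB, 290, 576 and 794 CPM in TM, 361, 653 and 951 CPM in HM and 295, 368 and 442 CPM in LDM. Of the 7, 3 were lower in PB over HM and 1 in PB over TM. In HM over LDM 6 were higher, and in TM over LDM 7. In TM over LDM 0 of the collagen IV, XV and XVIII genes were called. Their log2 changes there were nonetheless all positive, from 0.22 for COL4A6 to 0.50 for COL4A5. Of all tested genes, 14.1% were lower in PB over HM and 9.69% in PB over TM. The all-gene shares called higher were 16.5% in HM over LDM, 11.3% in TM over LDM and 20.5% in PB over LDM. In PB over LDM 2 endothelial markers were higher and all 7 had a positive log2 change (median 0.36), whereas the 3 collagen IV genes (median -0.33), COL15A1 and COL18A1 had negative ones, none called. The 6 smooth muscle and pericyte markers summed to 245, 497 and 782 CPM in PB, 422, 699 and 1604 CPM in TM, 476, 799 and 5176 CPM in HM and 339, 526 and 770 CPM in LDM, with 5 of 6 lower in PB over HM and 6 of 6 higher in HM over LDM. Without PB1, PB7, PB8 and HM6, 1 endothelial and 0 smooth muscle markers were lower in PB over HM, and 6 and 2 were higher in HM over LDM. In PB over TM, 0 markers of either list were then lower. Their part in the collagen differences was not tested.

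**Figure D4:**
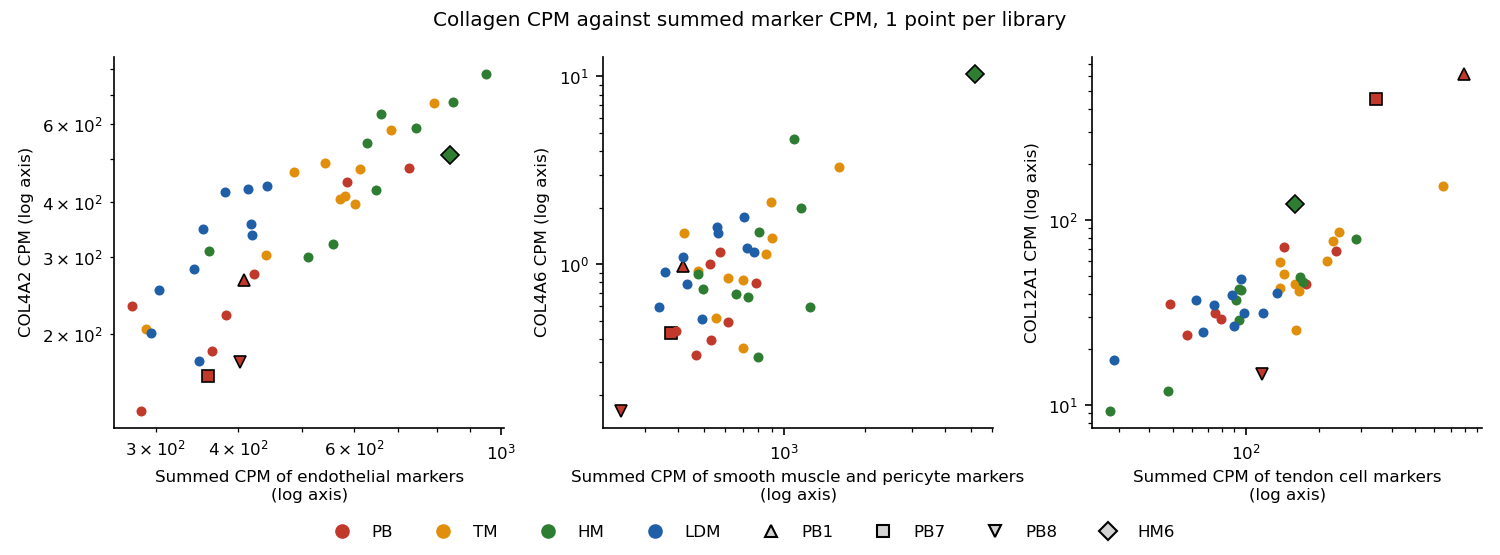
CPM of COL4A2 against summed endothelial markers, of COL4A6 against summed smooth muscle and pericyte markers, and of COL12A1 against summed tendon cell markers (all axes log, 1 point per library, colour by cut). HM6 lies at 5176 CPM of smooth muscle markers and 10.3 CPM of COL4A6, and PB1 lies at 796 CPM of tendon markers and 617 CPM of COL12A1.

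Genes for the other proteins of the basement membrane were lower in PB over HM too. Of 9 tested partners 0 were higher and 6 lower in PB over HM, with HSPG2, the proteoglycan perlecan, at -0.75 ± 0.17 (adjusted p = 0.00106), the laminin chain LAMC1 at -0.56 ± 0.14 (adjusted p = 0.00207) and the linker nidogen NID2 at -1.03 ± 0.25 (adjusted p = 0.00207). HSPG2 had 199.7, 336 and 659 CPM in PB against 433, 624 and 893 CPM in HM. Of all tested genes, 14.1% were lower in PB over HM, 16.5% higher in HM over LDM and 11.3% higher in TM over LDM. Without PB1, PB7, PB8 and HM6, 3 of the 9 partners were lower in PB over HM. In HM over LDM 3 were higher, NID2 by 1.56 ± 0.26, LAMA4 by 0.81 ± 0.20 and the proteoglycan agrin, AGRN, by 0.87 ± 0.28, and 0 were lower. In TM over LDM NID2 and AGRN rose, by 0.81 ± 0.25 and 0.78 ± 0.28. HSPG2 and NID1 fell in PB over TM, by 0.56 ± 0.17 and 0.55 ± 0.17, and LAMC1 fell in PB over LDM, by 0.44 ± 0.14. Of all tested genes, 9.69% were lower in PB over TM and 21.2% in PB over LDM. Without PB1, PB7, PB8 and HM6, 0 partners were lower in either pair.

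The most abundant fibrillar chains, those of collagens I and III, were called in none of the 6 pairs. COL1A1 (chromosome 12, 26379090 to 26397003, minus strand) had 19.8, 175 and 1058 CPM in PB, 162, 276 and 402 CPM in TM, 120, 208 and 782 CPM in HM and 100.3, 197 and 267 CPM in LDM. PB held both the lowest library, PB8, and the highest, PB1, and its range enclosed those of the 3 other cuts. The log2 change of COL1A1 was 0.72 ± 0.39 in PB over LDM, 0.60 ± 0.39 in TM over LDM, 0.63 ± 0.39 in HM over LDM, 0.09 ± 0.39 in PB over HM, 0.12 ± 0.39 in PB over TM and -0.03 ± 0.39 in TM over HM. COL1A1 passed in PB over LDM when PB8 alone was left out (0.86, adjusted p = 0.0473), and stood at -0.15 there without PB1 and PB7, which were at 1058 and 653 CPM. Its partner COL1A2 was at 0.68 ± 0.41 in PB over LDM and was not called in any pair.

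COL3A1 (chromosome 15, 93556912 to 93615815, plus strand) had 37.5, 302 and 682 CPM in PB, 289, 407 and 802 CPM in TM, 194, 389 and 935 CPM in HM and 136, 304 and 406 CPM in LDM. PB8 was the lowest of all 40 libraries and HM6 the highest. The log2 change was 0.19 ± 0.32 in PB over LDM, 0.69 ± 0.32 in TM over LDM, 0.62 ± 0.32 in HM over LDM, -0.43 ± 0.32 in PB over HM, -0.50 ± 0.32 in PB over TM and 0.07 ± 0.32 in TM over HM. The test for any difference among the cuts gave an adjusted p of 0.155 for COL3A1 and 0.338 for COL1A1. In a fit of TM and LDM alone COL1A1 and COL3A1 passed, at 0.61 ± 0.19 (adjusted p = 0.0243) and 0.70 ± 0.21 (adjusted p = 0.0193).

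Collagen V, which sits in the core of collagen I fibrils and limits their width, was not uniform. COL5A3 (chromosome 2, 68827562 to 68869884, minus strand) had 11.14, 56.6 and 88.4 CPM in PB, 71.8, 86.1 and 123 CPM in TM, 51.2, 90.5 and 124 CPM in HM and 54.5, 78.8 and 102 CPM in LDM. All 10 PB libraries lay below the HM median and 9 of 10 below the medians of TM and LDM, with PB8 far below the rest. COL5A3 fell by 0.83 ± 0.20 in PB over TM (adjusted p = 0.00198), by 0.75 ± 0.20 in PB over HM (adjusted p = 0.00383) and by 0.56 ± 0.19 in PB over LDM (adjusted p = 0.0190). The calls over TM and HM passed under every alternative run. That over LDM did not pass without PB1, PB7, PB8 and HM6 (-0.37, adjusted p = 0.0784), without HM6, HM9, TM3 and TM7 (adjusted p = 0.0544) or in a fit of PB and LDM alone (adjusted p = 0.0664).

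COL5A1 and COL5A2, the chains of the common collagen V trimer, rose in HM over LDM, by 0.61 ± 0.23 (adjusted p = 0.0415) and 0.60 ± 0.23 (adjusted p = 0.0385). COL5A1 had 22.5, 71.5 and 139 CPM in PB, 66.8, 105 and 164 CPM in TM, 67.4, 109.9 and 186 CPM in HM and 46.5, 73.8 and 109 CPM in LDM. COL5A2 had 32.3, 59.9 and 89.7 CPM in HM against 21.6, 40.8 and 50.2 CPM in LDM. The HM and LDM ranges of both overlapped, with 8 of 10 HM libraries above the LDM median. These calls were slight: that of COL5A1 was lost without any 1 of 16 libraries and that of COL5A2 without any 1 of 14, with the highest adjusted p without HM4, at 0.108 and 0.110. COL27A1, a fibrillar chain known from cartilage, had 3.12, 5.58 and 17.8 CPM in HM against 2.18, 4.11 and 6.32 CPM in LDM, with HM6 as the maximum. It rose by 0.73 ± 0.28 in HM over LDM (adjusted p = 0.0402), and stood at 0.44 without HM6 (adjusted p = 0.197).

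The chains of collagen XI, which nucleates thin fibrils in cartilage and developing tendon, were scarce, and their calls were lost without PB1 and PB7. COL11A1 (chromosome 4, 115540950 to 115840708, plus strand) had 0.489, 0.988 and 28.8 CPM in PB, 0.289, 1.07 and 4.27 CPM in TM, 0.254, 0.810 and 3.06 CPM in HM and 0.621, 1.64 and 3.91 CPM in LDM. Only PB1 at 28.8 CPM and PB7 at 18.6 CPM stood above these ranges, since the PB libraries apart from PB1, PB7 and PB8 ended at 1.73 CPM. COL11A1 rose by 2.30 ± 0.65 in PB over HM (adjusted p = 0.00749) and by 2.04 ± 0.64 in PB over TM (adjusted p = 0.0181), but stood at -0.22 and -0.47 without PB1 and PB7, neither passing. COL11A2 had 0, 0.533 and 6.35 CPM in PB against 0, 0.177 and 0.788 CPM in LDM, with 8 of 10 PB libraries above the LDM median. It rose by 2.04 ± 0.72 in PB over LDM (adjusted p = 0.0202) and stood at 0.28 without PB1 and PB7 (adjusted p = 0.770).

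**Figure D5:**
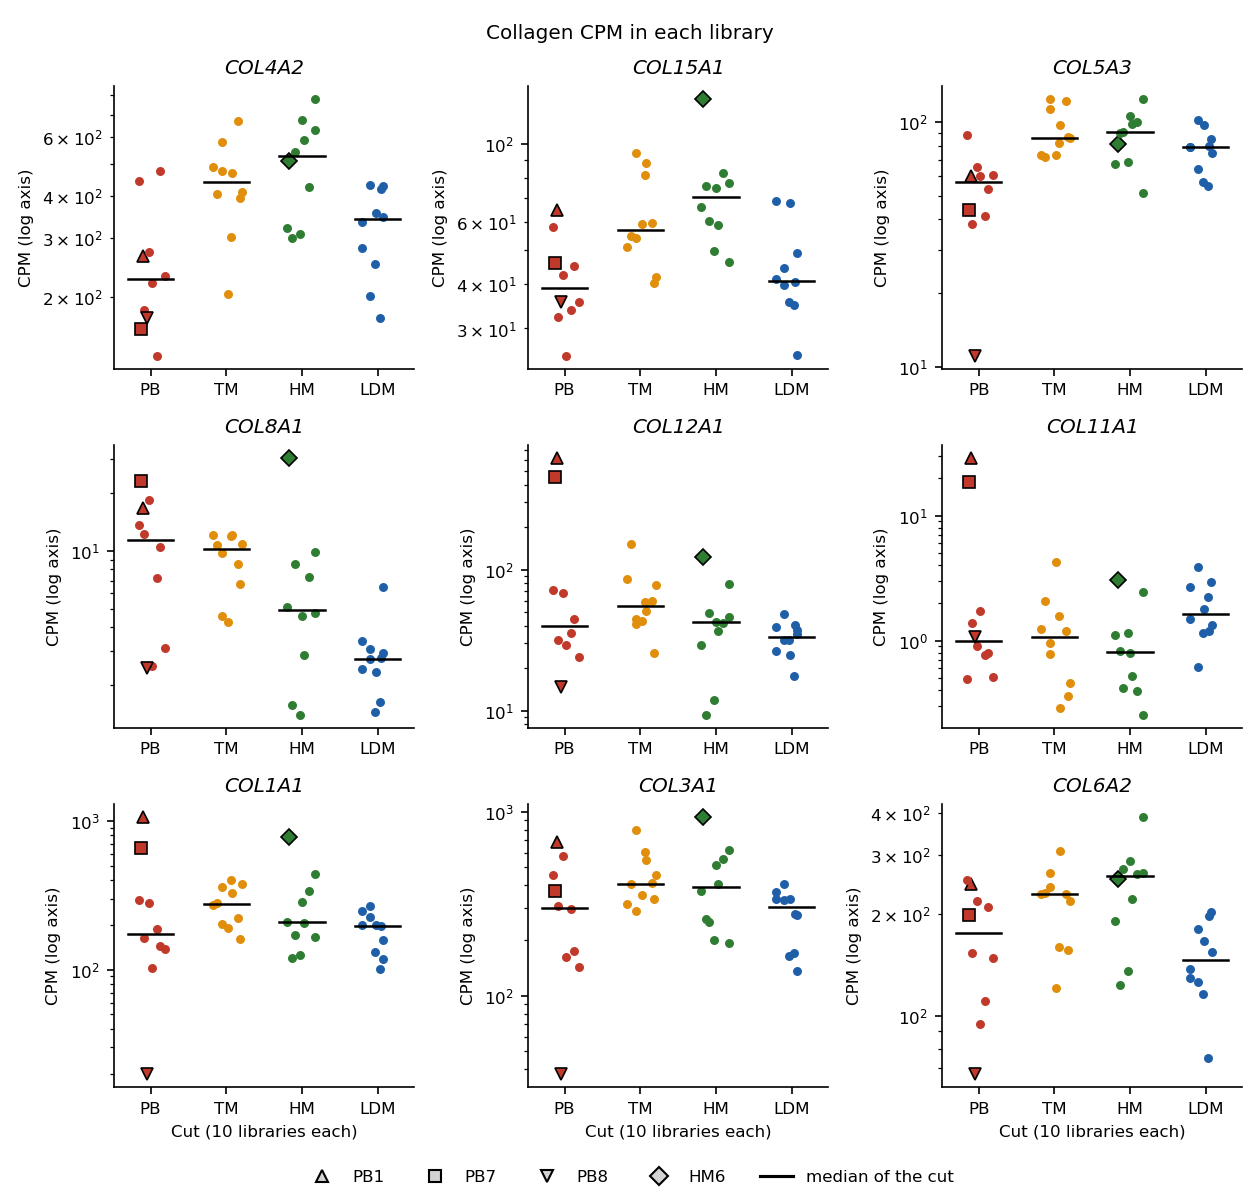
CPM of 9 collagen genes in each library of PB, TM, HM and LDM (log axes, 1 point per library, line at the median of 10). PB1 and PB7 lie far above all other libraries for COL12A1 and COL11A1, PB8 lies lowest for COL1A1, COL3A1 and COL5A3, and COL4A2 and COL15A1 are low across PB.

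Collagens that coat fibrils differed among themselves in PB. COL12A1 (chromosome 1, 90744429 to 90875118, plus strand), known from tendon, ligament and muscle connective tissue, had 14.8, 40.1 and 617 CPM in PB, 25.5, 55.1 and 152 CPM in TM, 9.30, 42.3 and 123 CPM in HM and 17.6, 33.2 and 48.2 CPM in LDM. PB1 at 617 CPM and PB7 at 454 CPM were the only libraries above the TM maximum, and the other PB libraries overlapped the 3 other cuts. COL12A1 rose by 2.06 ± 0.53 in PB over LDM (adjusted p = 0.00187) and by 1.57 ± 0.52 in PB over HM (adjusted p = 0.0213). Without PB1 and PB7 the log2 change was 0.26 in PB over LDM (adjusted p = 0.575) and -0.23 in PB over HM. Without PB1 alone it was 1.37 in PB over LDM, still called (adjusted p = 0.0182), and 0.87 in PB over HM (adjusted p = 0.167). The log2 changes of COL12A1 in TM over LDM, HM over LDM, PB over TM and TM over HM, at 0.95 ± 0.51, 0.50 ± 0.51, 1.12 ± 0.51 and 0.45 ± 0.51, were not called. In TM over LDM it passed without PB1 and PB7 (0.95, adjusted p = 0.0332), without PB1, PB7, PB8 and HM6 (0.93, adjusted p = 0.0155) and in a fit of TM and LDM alone (0.95, adjusted p = 0.00697).

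COL14A1, which binds fibrils through decorin, and COL16A1 rose in PB over LDM, by 1.36 ± 0.42 (adjusted p = 0.00932) and 1.18 ± 0.35 (adjusted p = 0.00688). COL14A1 had 8.33, 41.7 and 201 CPM in PB against 13.5, 23.0 and 33.7 CPM in LDM, and COL16A1 had 2.64, 9.31 and 47.6 CPM in PB against 4.004, 7.29 and 8.65 CPM in LDM. The PB ranges enclosed those of LDM, with the maxima in PB1 and PB7. Without PB1 and PB7 the log2 changes were 0.61 (adjusted p = 0.203) and 0.24 (adjusted p = 0.488). With PB8 and HM6 left out as well, COL14A1 passed at 0.80 (adjusted p = 0.0375) and COL16A1 did not.

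Of the 5 tendon cell markers, TNMD, MKX and FMOD were high in the same libraries. TNMD was 8.71 CPM in PB1 and 8.26 CPM in PB7 and at most 0.472 CPM in the PB libraries other than PB1, PB7 and PB8, with 0 counts in 24 of the 40 libraries. MKX was 9.77 and 7.98 CPM in PB1 and PB7 against 0.0731 to 0.516 CPM in those PB libraries, and FMOD 369.5 and 224 CPM against 6.07 to 26.2 CPM. Outside PB, FMOD reached 162 CPM in TM and 104 CPM in HM6, and MKX 1.92 CPM in TM and 3.575 CPM in HM6. THBS4, the most abundant marker of the list, was 408 CPM in PB1 but 103 CPM in PB7, inside the 32.5 to 208 CPM of those PB libraries, and reached 486 CPM in TM. SCX, the remaining tendon transcription factor on the list, had 0 counts in 15 libraries and at most 0.471 CPM in any. The 5 tendon markers summed to 48.7, 130 and 796 CPM in PB, 139, 164 and 651 CPM in TM, 27.6, 95.02 and 286 CPM in HM and 28.6, 88.9 and 135 CPM in LDM. The 3 that passed the filter rose in PB over LDM, where 20.5% of all tested genes were called higher with all libraries. Without PB1 and PB7, 0 of these 3 tendon markers were called higher there. Their part in the collagen differences was not tested.

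COL21A1 (chromosome 7, 29415089 to 29609037, plus strand), a small fibril-coating chain known from vessel walls, went the other way. It had 0.413, 2.41 and 4.06 CPM in PB, 2.20, 3.55 and 6.14 CPM in TM, 2.03, 5.39 and 7.04 CPM in HM and 1.52, 4.11 and 6.83 CPM in LDM. All 10 PB libraries lay below the medians of HM and LDM, with overlapping ranges and PB8 far below the rest. COL21A1 fell by 1.12 ± 0.26 in PB over HM (adjusted p = 0.00127), by 0.78 ± 0.26 in PB over LDM (adjusted p = 0.0148) and by 0.77 ± 0.26 in PB over TM (adjusted p = 0.0272). The calls in PB over HM and PB over LDM passed under every alternative run. That in PB over TM was lost without TM8 (adjusted p = 0.0833) or any 1 of TM10, TM5 and TM6. It was also lost without PB1, PB7, PB8 and HM6 (adjusted p = 0.0752).

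Collagen VI, whose beaded filaments tie the muscle fibre surface to the matrix around it, was higher in HM than in LDM in its 3 main chains. COL6A2, which lies on the unplaced contig AEMK02000328.1, had 67.2, 176 and 253 CPM in PB, 121, 229 and 308 CPM in TM, 123, 259 and 388 CPM in HM and 75.0, 146 and 204 CPM in LDM. COL6A3 had 259.6, 478 and 705 CPM in HM against 148, 294 and 420.2 CPM in LDM, and COL6A1 141, 299.9 and 396 CPM in HM against 98.8, 183 and 259 CPM in LDM. For each of the 3 chains 8 of 10 HM libraries lay above the LDM median, and the ranges overlapped. COL6A2 rose by 0.69 ± 0.21 (adjusted p = 0.0106), COL6A3 by 0.57 ± 0.20 (adjusted p = 0.0279) and COL6A1 by 0.54 ± 0.21 (adjusted p = 0.0474). COL6A2 passed under every alternative run, COL6A3 lost its call without HM4 (adjusted p = 0.0919), LDM8 or LDM1, and COL6A1 without any 1 of 22 libraries, with the highest adjusted p, 0.124, without HM4.

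COL6A1 was not called in the remaining pairs, at 0.18 ± 0.21 in PB over LDM, 0.48 ± 0.21 in TM over LDM, -0.36 ± 0.21 in PB over HM, -0.30 ± 0.21 in PB over TM and -0.06 ± 0.21 in TM over HM. COL6A6, a chain that can take the place of COL6A3 and is known from adult muscle, was called in PB over HM alone. It had 3.71, 11.5 and 16.1 CPM in PB, 3.04, 6.08 and 14.2 CPM in TM, 2.80, 5.08 and 10.9 CPM in HM and 3.34, 6.98 and 11.7 CPM in LDM. It rose by 0.83 ± 0.28 in PB over HM (adjusted p = 0.0228), with 7 of 10 PB libraries above the HM median. Without PB3 the adjusted p was 0.0510, and without PB1, PB7, PB8 and HM6 COL6A6 passed at a log2 change of 1.06 (adjusted p = 0.0103).

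COL8A1 (chromosome 13, 159216138 to 159374504, minus strand), the short network chain known from vessel walls and the cornea, was low in LDM against all 3 other cuts. It had 2.48, 11.4 and 22.9 CPM in PB, 4.27, 10.2 and 12.1 CPM in TM, 1.40, 4.95 and 30.3 CPM in HM and 1.46, 2.75 and 6.46 CPM in LDM. All 10 TM libraries and 8 of 10 libraries each of PB and HM lay above the LDM median, and all ranges overlapped that of LDM. COL8A1 rose by 1.90 ± 0.43 in PB over LDM (adjusted p = 0.000521), by 1.64 ± 0.42 in TM over LDM (adjusted p = 0.00414), where it was the single called collagen, and by 1.39 ± 0.42 in HM over LDM (adjusted p = 0.0109). Those in PB and TM passed under every alternative run, and that in HM stood at 0.81 without HM6 (adjusted p = 0.0965).

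COL8A2, its partner chain, was scarce, at a PB median of 0.255 CPM and a maximum of 7.12 CPM in PB7, against a median of 0.493 CPM in LDM. It rose by 1.52 ± 0.63 in PB over LDM (adjusted p = 0.0491) although 7 of 10 PB libraries lay below the LDM median, and stood at -0.69 without PB1 and PB7. The membrane-spanning COL23A1 fell by 0.79 ± 0.30 in PB over HM (adjusted p = 0.0467), with medians of 0.599 CPM in PB and 1.04 CPM in HM, and lost that call without any 1 of 27 libraries. COL28A1, a chain with von Willebrand domains known from nerve in mice, was called in no pair and ranged from a log2 change of -1.24 ± 0.57 in PB over TM to 1.154 ± 0.56 in TM over LDM.

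Counts that rest on the libraries that stand apart shifted as follows. Without PB1 and PB7, PB over LDM kept 3 of its 8 calls (COL8A1 higher, COL5A3 and COL21A1 lower), and PB over HM had 11 calls, 1 higher and 10 lower, with COL5A1, COL6A2 and COL6A3 now lower at -0.78, -0.61 and -0.64. Without PB1, PB7, PB8 and HM6, PB over HM had 6 calls: COL4A2, COL5A3, COL15A1 and COL21A1 lower and COL6A6 and COL8A1 higher. HM over LDM then had 6 higher and 1 lower, COL11A1 at -1.17, PB over TM had COL5A3 and COL15A1 lower, and TM over LDM had 9 higher. Without HM6, HM9, TM3 and TM7, PB over HM had 7 higher and 5 lower, against 3 and 8 with all libraries. The share of all genes called with these libraries left out is not given here, so these counts are not set against it.

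The 13 members under the filter were scarce. Summed over all 40 libraries, COL10A1 of growth plate cartilage had 4 counts, COL9A1 12, COL6A5 49, COL25A1 70, COL2A1, the main chain of cartilage fibrils, 79, and COL4A4 103. COL26A1 had 129 counts, COL13A1 143, COL4A3 207, COL9A3 219, COL17A1 220, COL19A1 289 and COL22A1 448. COL4A3 and COL4A4 are known chiefly from kidney, lung and inner ear. COL22A1, a chain of muscle-tendon junctions, had 0, 0.0742 and 8.96 CPM in PB, 0.0737, 0.338 and 1.53 CPM in TM, 0.0610, 0.589 and 5.66 CPM in HM and 0, 0.157 and 0.425 CPM in LDM. PB1 and HM4 gave its highest values, and the ranges of all cuts overlapped.

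Among genes that modify and fold collagen chains in the cell, calls in PB over HM and PB over TM were mainly lower ones. Of 17 tested, 1 was higher and 8 lower in PB over HM, with the prolyl 3-hydroxylases P3H1 and P3H2 at -0.77 ± 0.16 (adjusted p = 0.000341) and -0.67 ± 0.15 (adjusted p = 0.000778) and the lysyl hydroxylase PLOD1 at -0.71 ± 0.19 (adjusted p = 0.00399). P3H1 had 13.3, 17.3 and 25.6 CPM in PB against 19.4, 28.4 and 61.8 CPM in HM. In PB over TM 0 were higher and 7 lower, led by P4HB, the beta subunit of prolyl 4-hydroxylase, at -0.54 ± 0.13, P3H2 at -0.58 ± 0.15 and the collagen glycosyltransferase COLGALT2 at -0.76 ± 0.23. In PB over LDM P4HB and PLOD1 fell, by 0.66 ± 0.13 and 0.80 ± 0.19, and PLOD2, which hydroxylates telopeptide lysines for stable cross-links, rose by 0.91 ± 0.33. Of all tested genes, 14.1% were lower in PB over HM and 9.69% in PB over TM. The all-gene shares called higher were 16.5% in HM over LDM and 11.3% in TM over LDM. Leaving out PB1, PB7, PB8 and HM6, 5 of the 17 were lower in PB over HM and 5 in PB over TM. In HM over LDM 4 were higher and 1 lower, with P3H1 at 0.72 ± 0.16, the isomerase PPIB at 0.69 ± 0.20 and P3H4 at 0.85 ± 0.27, and in TM over LDM 3 were higher, P3H4 by 1.09 ± 0.27, PPIB by 0.58 ± 0.20 and P3H1 by 0.45 ± 0.16.

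Some of the genes that trim and cross-link secreted collagen were higher in PB, TM or HM over LDM. Of 10 tested, 4 were higher in PB over LDM, 6 in TM over LDM and 3 in HM over LDM, and 0 were lower in any of these pairs. Of all tested genes, 20.5%, 11.3% and 16.5% were higher in these pairs, in the same order. LOX, the lysyl oxidase that starts cross-linking, had 5.73, 16.3 and 95.2 CPM in PB, 3.001, 7.92 and 26.9 CPM in TM, 1.57, 5.44 and 33.7 CPM in HM and 2.75, 6.70 and 13.6 CPM in LDM. The PB range overlapped those of the 3 other cuts, with PB1 highest. LOX rose by 1.997 ± 0.50 in PB over LDM (adjusted p = 0.00165), by 1.71 ± 0.50 in PB over HM (adjusted p = 0.00904) and by 1.42 ± 0.49 in PB over TM (adjusted p = 0.0323). Without PB1 and PB7 it passed in PB over LDM (1.14, adjusted p = 0.0461) and not in PB over HM (0.85, adjusted p = 0.177) or PB over TM (0.56, adjusted p = 0.399). In PB over HM it passed without PB1, PB7, PB8 and HM6 (1.70, adjusted p = 0.00237). ADAMTS3, a procollagen N-proteinase, rose by 2.33 ± 0.55 and LOXL1 by 0.87 ± 0.30 in PB over LDM.

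BMP1, the procollagen C-proteinase, set TM and HM apart from PB and LDM. It had 12.3, 21.8 and 94.8 CPM in PB, 13.4, 74.7 and 183 CPM in TM, 16.7, 61.6 and 183 CPM in HM and 9.32, 24.4 and 40.2 CPM in LDM, with overlap between all cuts. BMP1 rose by 1.60 ± 0.41 in TM over LDM (adjusted p = 0.00361) and by 1.64 ± 0.41 in HM over LDM (adjusted p = 0.00237), and fell by 1.30 ± 0.41 in PB over HM (adjusted p = 0.0153) and by 1.26 ± 0.41 in PB over TM (adjusted p = 0.0210). Without PB1 and PB7 the adjusted p was 0.0540 in PB over HM and 0.0648 in PB over TM. LOXL1 and LOXL2, relatives of LOX, rose by 1.30 ± 0.30 and 1.36 ± 0.31 in HM over LDM. LOXL1 and ADAMTS2, the main procollagen N-proteinase, rose by 1.32 ± 0.30 and 1.148 ± 0.32 in TM over LDM. The enhancer of BMP1, PCOLCE, fell by 0.64 ± 0.20 in PB over HM. Without PB1, PB7, PB8 and HM6, 0 of the 10 trimming and cross-linking genes were lower in PB over HM or PB over TM.

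PB over LDM had the most called collagen receptors, and also the largest share of all genes called (41.7%, of which 20.5% higher and 21.2% lower). Of 7 receptors, 4 were higher and 1 lower in PB over LDM, with the integrins ITGA1 and ITGA11 at 1.37 ± 0.29 and 1.46 ± 0.37 and the receptor kinase DDR2 at 1.17 ± 0.25. ITGA1 and DDR2 were also higher in HM over LDM, by 0.82 ± 0.29 and 0.72 ± 0.25 (0 receptors were called there without PB1, PB7, PB8 and HM6), and ITGA11 in TM over LDM, by 1.19 ± 0.37. DDR1 fell by 0.66 ± 0.25 in PB over HM, and 0 receptors were lower there without PB1 and PB7. ITGB1, the partner of all collagen-binding integrins, rose by 0.75 ± 0.26 in PB over TM. Of 8 breakdown genes, the fibroblast protease FAP rose by 1.05 ± 0.25 in PB over LDM, the inhibitors TIMP3 and TIMP4 by 0.74 ± 0.25 and 0.64 ± 0.23 in HM over LDM and TIMP4 by 0.77 ± 0.23 in TM over LDM, while TIMP4 fell by 0.71 ± 0.23 in PB over TM. Without PB1, PB7, PB8 and HM6, 0 breakdown genes were lower in PB over TM. The all-gene shares called higher were 16.5% in HM over LDM, 11.3% in TM over LDM and 13.4% in PB over TM. Those called lower were 14.1% in PB over HM and 9.69% in PB over TM. In TM over HM, 0 genes of these 5 lists were called, where only 0.768% of all genes were.

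Fibroblast markers, the 7 genes listed for the cells that make most fibrillar collagen, summed to 184, 404 and 757 CPM in PB, 283, 428 and 612 CPM in TM, 236, 391 and 760 CPM in HM and 201, 314 and 432 CPM in LDM. Of the 7, 2 were higher in PB over LDM, 2 in TM over LDM and 1 in HM over LDM. In PB over HM 0 were called, and in PB over TM 1 was lower. Of all tested genes, 20.5% were higher in PB over LDM, 11.3% in TM over LDM and 16.5% in HM over LDM. In PB over TM 9.69% were lower. Without PB1, PB7, PB8 and HM6, 0 fibroblast markers were lower in PB over TM. The lowest fibroblast sum was in PB8 and the highest in HM6, with PB1 next at 757 CPM. The single markers did not all follow the sums. In PB8, DCN, LUM, PI16 and MFAP5 lay below the PB libraries other than PB1, PB7 and PB8, and THY1 and DPT inside their range. PDGFRA lay above it in PB8, at 36.0 CPM against 12.8 to 34.7 CPM. In PB1 only DCN and THY1 lay above that range, and in HM6 all but DPT lay above the rest of HM. Of the cartilage and skin lists, MATN1 and KRT5 each had 0 counts in 39 libraries. SOX9 of the cartilage list and TP63 of the skin list had counts in every library, 3234 and 10748 in all. ACAN, COMP and CNMD had 0 counts in 19, 23 and 20 libraries. The cartilage list summed to 0.386 to 38.4 CPM over the 40 libraries, highest in PB1, where COMP was 35.7 CPM. COMP also reached 25.8 CPM in HM. The skin list, in which TP63 held all but 1 count, summed to 1.97 to 60.7 CPM, highest in LDM8. The part of these lists in the collagen differences was not tested.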

How the data were processed

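RNA sequencing counts from 40 pig muscle libraries were analysed. The deposited table holds, per the file headers, whole-number read counts and FPKM values per gene and library. Per the submitters' processing notes the build was Sscrofa11.1 and the tools were cutadapt 1.15, HISAT2 2.0.5 and HTSeq 0.9.1, and the strand setting was not given in the sources used here. The FPKM of the authors equal the deposited count divided by gene length and library total in 100% of values within a relative tolerance of 0.001, so they were used for levels between genes and not tested. The counts entered a robust quasi-likelihood fit in edgeR 4.0.16 (R 4.3.3), with cut as the only factor, all 40 libraries and TMM scaling. Low genes were removed by filterByExpr with cut as the group, and 11713 genes were tested. P-values had Benjamini-Hochberg adjustment and a threshold of 0.05. CPM are counts over the TMM-scaled total. The standard error is the log2 change divided by the square root of F.

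Library totals of 12305913 to 17735722 counts limit precision most for the scarce chains, and intervals for counting error alone are not given. Libraries were grouped by title. No 2 libraries of a cut were alike: the lowest chi-square per gene was 29.8. The steps were tested on simulated counts with known changes.

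The collagen members, the gene lists and the marker lists were chosen with earlier results of these data known. Named were, per pair and class, up to 6 called members by smallest adjusted p, COL1A1, COL3A1, COL4A1, COL6A1, COL12A1 and COL15A1 in every pair, and up to 3 called genes of each list. Alternatives were DESeq2 size factors, the DESeq2 1.42.0 Wald test, limma-voom with quality weights (limma 3.58.1), no filter, the library number as a block, mitochondrial genes out of the scaling, each pair alone, 4 preset libraries left out, each library left out, and, chosen after seeing the data, leaving out PB1 and PB7, or PB1, PB7, PB8 and HM6. COL24A1 and rows whose symbol the table does not give were not analysed here, apart from COL4A1. No sequence is shown, as none was read.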

Additional observations from a re-analysis of the deposited data

Results flagged for a closer look

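Each of the 26 tested collagen genes was checked in each cut for a library far from the other 9 (Dixon's test at the 95% level on log2(CPM + 0.1)). Of 104 checks 6 passed, and chance passes about 5% of them. COL5A3 in PB8 was 11.14 CPM, against 38.5 to 88.4 CPM in the rest of PB. COL21A1 in PB8 was 0.413 CPM, against 1.42 to 4.06 CPM. HM6 was the high library for COL27A1, at 17.8 CPM against 3.12 to 7.37 CPM in the rest of HM, and for COL4A5, at 15.6 CPM against 1.89 to 5.13 CPM. COL23A1 in HM8 was 0.223 CPM, against 0.732 to 2.25 CPM. COL4A5 in LDM1 was 0.801 CPM, against 1.43 to 2.54 CPM in the rest of LDM.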

How the results depend on the processing

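Over 66 results and 3300 recomputations, 3034 kept their direction and side of the threshold, 197 lost the call, 26 gained it and 43 changed sign. The DESeq2 Wald test gives no value for any difference among the 4 cuts, and the fit of each pair alone does not apply to it. Collagen counts in TM over LDM moved most, being 1 with all libraries and 3 (DESeq2 Wald test), 7 (limma-voom), 5 (replicate block), 11 (pair alone), 3 (without HM6, HM9, TM3 and TM7, and without PB1 and PB7) and 9 (without PB1, PB7, PB8 and HM6). PB over LDM had 3 without PB1 and PB7 and 3 without PB1, PB7, PB8 and HM6. Leaving out those 4 gave 6 in PB over HM and 2 in PB over TM, and leaving out HM6, HM9, TM3 and TM7 gave 5 in HM over LDM. With 1 library left out, counts ran from 5 to 10 in PB over LDM, 1 to 3 in TM over LDM, 4 to 10 in HM over LDM, 9 to 13 in PB over HM, 4 to 8 in PB over TM, 0 in TM over HM and 12 to 18 for any difference. The cause was not tested, and these counts are not set against the share of all genes called under the same settings.

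Sign changes fell on genes with no call or whose call was lost. Without PB1 and PB7 the log2 change in PB over LDM was -0.15 for COL1A1, -0.060 for COL3A1 and -0.69 for COL8A2, in PB over HM it was -0.22 for COL11A1, -0.23 for COL12A1 and -0.78 for COL1A1, and in PB over TM -0.47 for COL11A1, -0.68 for COL12A1 and -0.75 for COL1A1. Without PB1, PB7, PB8 and HM6 it was -0.47 for COL8A2 in PB over LDM, -0.23 for COL1A1 in PB over HM, -0.45 for COL11A1, -0.51 for COL12A1 and -0.54 for COL1A1 in PB over TM, and 0.32 for COL1A1 and 0.023 for COL6A1 in TM over HM. Without HM6, HM9, TM3 and TM7 COL1A1 stood at 0.33 and COL6A1 at 0.0067 in TM over HM. COL1A1 stood at -0.085 in PB over TM and 0.11 in TM over HM with limma-voom, and at 0.0034 in TM over HM with mitochondrial genes out of the scaling. With 1 library left out, COL1A1 ran from -0.37 to 0.45 in PB over HM, -0.34 to 0.26 in PB over TM and -0.11 to 0.28 in TM over HM, COL3A1 from -0.0012 to 0.33 in PB over LDM and -0.023 to 0.27 in TM over HM, and COL6A1 from -0.13 to 0.039 in TM over HM.

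With the library number as a replicate block, COL1A1 stood at -0.031 in PB over HM, -0.067 in PB over TM and 0.036 in TM over HM. The block gave 7 calls in PB over LDM, 5 in TM over LDM, 10 in HM over LDM, 10 in PB over HM, 6 in PB over TM and 0 in TM over HM. Libraries with the same number correlated above 0.1 in 52 of 60 pairs, and 28 of 40 libraries correlated best with their own number. The median correlation was 0.245 for pairs of the same number and -0.032 for other pairs. Because 8 pairs did not pass 0.1, and the labels do not say that a number marks a pig, the block stayed an alternative. This likeness is a hint from the data that library numbers pair libraries, and the main fit does not use such a pairing. Under the block the adjusted p was 0.0547 for COL12A1, 0.0846 for COL11A2 and 0.305 for COL8A2 in PB over LDM, 0.272 for COL12A1 and 0.131 for COL11A1 in PB over HM, and 0.182 for COL11A1 in PB over TM, all called without it. It was 0.0357 for COL4A1 in PB over LDM, and 0.0178 for COL4A1, 0.0264 for COL15A1 and 0.0356 for COL6A1 in TM over LDM, none called without it.

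The chains COL4A6, COL8A2, COL11A1 and COL11A2 had medians near 1 CPM or lower, so few counts stand behind each of their values.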
